A study of Mus musculus with 31 samples.

Results

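The genes described are 10 transcription factor genes that act in acinar cells and in the epithelium that derives from the foregut: Ptf1a, Rbpjl, Bhlha15, Nr5a2, Gata4, Gata6, Hnf4a, Foxa1, Foxa2 and Foxa3. They were taken by gene symbol, and each of the 10 has 1 row among the 38283 genes of both deposited expression tables. RNA had been sequenced from C57BL/6 mouse pancreas taken on postnatal day 2, after sorting its cells into YFP-positive mesenchymal and YFP-negative non-mesenchymal cells. Every animal, control or mutant, carried an Nkx3.2-Cre allele, which is active in pancreatic mesenchyme, so that the conditional deletions were directed to the mesenchymal cells and not to the non-mesenchymal cells.

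In the first model, the mutants were Igf2+/fl; Nkx3.2Cre/+ and the controls Igf2+/+; Nkx3.2Cre/+, and 3 mutant and 4 control libraries of non-mesenchymal cells were available. In the second model, the mutants were H19DMDfl/+; Nkx3.2+/Cre and the controls H19DMD+/+; Nkx3.2+/Cre, and each sorted fraction had 4 mutant and 3 control libraries. H19DMD is the imprinting control region of Igf2 and H19. The mesenchymal cells of the Igf2 model were not analysed here. The labels do not say that the libraries of a group came from separate animals, so p-values measure the spread between these libraries only. Each model has its own table and sequencing pool, so the effects of model and of pool cannot be told apart. Levels were tested only within a table.

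PTF1A, a basic helix-loop-helix protein, forms the PTF1 complex with a common E-protein such as TCF3 or TCF12 and with RBPJ, which in maturing acinar cells is replaced by its acinar-specific relative RBPJL. The complex binds a bipartite site, an E-box beside a TC-box, in the genes of digestive enzymes and in Rbpjl itself. BHLHA15 (also called MIST1) and the nuclear receptor NR5A2 maintain the secretory and enzyme programmes of acinar cells, while GATA4, GATA6, HNF4A and the FOXA proteins act more broadly in the epithelium of foregut organs.

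The upstream sequences of the 4 acinar factors are shown because the PTF1 site is part of this circuit. RefSeq promoters of GRCm38.p6 were matched by symbol for 8 of the 10 genes, with 12 start sites in all. For each gene below, the 250 bases before its first listed start are given 5′ to 3′ on the gene's own strand, with E-boxes (CANNTG) and TC-boxes (TGGGAA, either strand) in capitals.
Ptf1a, chr2:19445413-19445662, plus strand: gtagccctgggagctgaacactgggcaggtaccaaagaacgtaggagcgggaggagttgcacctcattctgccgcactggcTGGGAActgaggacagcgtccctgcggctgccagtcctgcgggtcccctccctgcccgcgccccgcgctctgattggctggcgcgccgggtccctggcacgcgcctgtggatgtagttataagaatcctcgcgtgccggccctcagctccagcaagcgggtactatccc
Rbpjl, chr2:164402944-164403193, plus strand: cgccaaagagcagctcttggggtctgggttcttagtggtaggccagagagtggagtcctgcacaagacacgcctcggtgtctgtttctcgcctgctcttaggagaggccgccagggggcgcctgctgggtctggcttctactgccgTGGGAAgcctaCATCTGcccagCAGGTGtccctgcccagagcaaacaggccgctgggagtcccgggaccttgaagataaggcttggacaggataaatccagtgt
Bhlha15, chr5:144190036-144190285, plus strand: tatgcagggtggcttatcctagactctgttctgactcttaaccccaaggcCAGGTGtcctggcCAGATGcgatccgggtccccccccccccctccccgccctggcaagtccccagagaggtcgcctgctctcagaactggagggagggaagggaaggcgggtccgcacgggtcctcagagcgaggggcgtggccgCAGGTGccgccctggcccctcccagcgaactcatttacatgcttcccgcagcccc
Nr5a2, chr1:136960449-136960698, minus strand: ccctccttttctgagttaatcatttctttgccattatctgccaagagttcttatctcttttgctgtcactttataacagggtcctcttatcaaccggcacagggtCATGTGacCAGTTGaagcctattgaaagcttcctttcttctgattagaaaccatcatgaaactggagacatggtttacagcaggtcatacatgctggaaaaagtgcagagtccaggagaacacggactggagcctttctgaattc

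In the Rbpjl sequence a TC-box began 104 bases before the start and was followed by E-boxes at 93 (CATCTG) and 82 (CAGGTG) bases before the start. The Ptf1a window held a TC-box at 169 bases before the start and no CANNTG. The Bhlha15 window held 3 E-boxes, at 200, 187 and 55 bases before the start, and no TC-box. For Nr5a2, E-boxes lay at 145 and 137 bases before the start, and GATA sites (AGATAA, either strand) at 217 and 200 bases. A GATA site was also present in the Rbpjl window, 31 bases before the start. The GENCODE annotation given below begins Rbpjl at base 164403141, inside this RefSeq window, so that this GATA site lies within the GENCODE gene. No match of one motif overlapped a match of another in these 4 windows.

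Such short motifs are common. Among 32851 RefSeq windows of the same length, 66.2% held an E-box, 21.6% a TC-box and 9.99% a GATA site. A forkhead site (TGTTTAC, either strand) was found in 3.17% of all windows and, among the 12 start sites, only in that of Foxa1. An NR5A site (CAAGGTCA, either strand) occurs in 1.33% and an HNF4 site (CAAAGTCCA, either strand) in 0.384% of windows, and neither was in the 12. These matches describe the letters of a window and were not tied to binding.

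In the GENCODE M21 annotation of GRCm38, Ptf1a (ENSMUSG00000026735) spans bases 19445663 to 19447501 on the plus strand of chromosome 2, Rbpjl (ENSMUSG00000017007) bases 164403141 to 164415448 on the plus strand of chromosome 2, Bhlha15 (ENSMUSG00000052271) bases 144190286 to 144194441 on the plus strand of chromosome 5, and Nr5a2 (ENSMUSG00000026398) bases 136842571 to 136960448 on the minus strand of chromosome 1. All 10 are protein-coding. Gata4 (ENSMUSG00000021944) lies on chromosome 14 from 63198922 to 63271692, minus strand, and Gata6 (ENSMUSG00000005836) on the plus strand of chromosome 18 from 11052064 to 11085635. Hnf4a (ENSMUSG00000017950) lies on chromosome 2 from 163506808 to 163572910, plus strand. The Foxa genes are on the minus strand: Foxa1 (ENSMUSG00000035451) on chromosome 12 from 57540628 to 57546916, Foxa2 (ENSMUSG00000037025) on chromosome 2 from 148042877 to 148046969, and Foxa3 (ENSMUSG00000040891) on chromosome 7 from 19013284 to 19023538.

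Other annotated genes overlap 4 of them, and the use of strand in the counting is not given in the sources used here, so reads of overlapping genes cannot be told apart. Ptf1aos, antisense to Ptf1a, was listed at 0 in every library under its older symbol Gm13336. Matn4, which overlaps Rbpjl, reached at most 2.87 FPKM. Hnf4aos, antisense to Hnf4a and listed as 0610008F07Rik, reached at most 1.15 FPKM, and a U6 RNA feature within Hnf4a was at 0 except in the Igf2 mutants, with a median of 108.6 and a maximum of 262.4 FPKM there. The long non-coding RNA 1010001N08Rik, listed as AC130654.1, which overlaps Gata6, was at 1.67 to 9.92 FPKM, and its part in the Gata6 values was not tested.

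Values are FPKM, fragment counts scaled by transcript length and by the mapped fragments of the library, which allow levels of different genes to be set side by side. Absolute depth is unknown. Between the deepest and the shallowest library, relative depth differed 2.68-fold in the Igf2 table and 2.13-fold in the H19DMD table, with 19199 to 20918 and 17476 to 19352 genes above 0. The 3 features with the highest FPKM took 60.5 to 82.5% and 38.2 to 58.2% of the FPKM of a library. At the targeted locus, H19 in mesenchymal cells was at 564.6 to 835.4 FPKM in H19DMD mutants against 2437 to 2454 in controls, and Igf2 at 6162 to 7923 against 3648 to 4024. In the non-mesenchymal cells of the Igf2 model, which the Cre does not target, Igf2 was at 24.97 to 146.5 FPKM in mutants and 71.5 to 143.9 in controls. In those of the H19DMD model it was at 88.5, 156.7, 45.4 and 141.4 FPKM in mutants and at 53.2, 45.2 and 46.2 FPKM in controls, with mutant 3 alone inside the control range. The sort matched the mesenchymal and pan-epithelial markers. In the H19DMD model, 13 mesenchymal genes summed to 5801 to 7493 FPKM in mesenchymal and 167.5 to 300.8 in non-mesenchymal libraries. The 7 pan-epithelial genes summed to 4.67 to 14.8 against 381.1 to 958.0 FPKM. The 8 endothelial genes were higher in mesenchymal libraries, at 102.7 to 191.1 against 22.7 to 66.8 FPKM. The reason for this was not tested. In bulk samples of this kind, fewer cells of a type and less RNA per cell cannot be told apart.

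Non-mesenchymal cells contained RNA of 9 of the 10 factors in every library, and Foxa1 was close to absent. In the H19DMD control libraries the order of mean levels began with Rbpjl at 24.2 ± 7.56 FPKM (SD, n = 3) and Nr5a2 at 23.7 ± 3.10, whose ranges overlapped, followed by Gata6 at 15.98 ± 2.38, Bhlha15 at 10.2 ± 4.36, Gata4 at 8.81 ± 4.02, Hnf4a at 7.64 ± 1.82, Foxa2 at 6.34 ± 3.40, Ptf1a at 3.04 ± 1.15 and Foxa3 at 2.53 ± 0.652. Only 2 neighbours in this order had ranges apart, Nr5a2 from Gata6, and Foxa3 from Foxa1, which averaged 0.0324 ± 0.0561 FPKM. Rbpjl and Nr5a2 thus stood higher than 85.8% and 85.5% of the genes with a value above 0, and Ptf1a, the founding member of the PTF1 complex, higher than 45.0%.

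The 4 controls of the Igf2 model, normalised in another table, had Nr5a2 first at 27.8 ± 4.74 FPKM (SD, n = 4), then Rbpjl at 17.3 ± 8.36 and Gata6 at 15.9 ± 5.10, with overlapping ranges. Foxa2 (11.3 ± 4.29) and Hnf4a (10.4 ± 2.00) came next and had ranges that overlapped each other, and Hnf4a was apart from Foxa3 (4.62 ± 0.501). Bhlha15 (4.17 ± 1.18), Gata4 (3.52 ± 1.05) and Ptf1a (2.36 ± 1.87) followed with overlapping ranges, and Foxa1 was last at 0.219 ± 0.326. Among the non-mesenchymal mutants, Rbpjl led in the Igf2 model (37.0 ± 23.7 FPKM, n = 3) with its range apart from that of Nr5a2 (20.1 ± 2.24), while Nr5a2 led in the H19DMD model (31.1 ± 5.50, n = 4) with a range that overlapped that of Rbpjl (19.3 ± 5.79). Ptf1a was the lowest but for Foxa1 in 3 of the 4 non-mesenchymal groups.

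**Figure D1:**
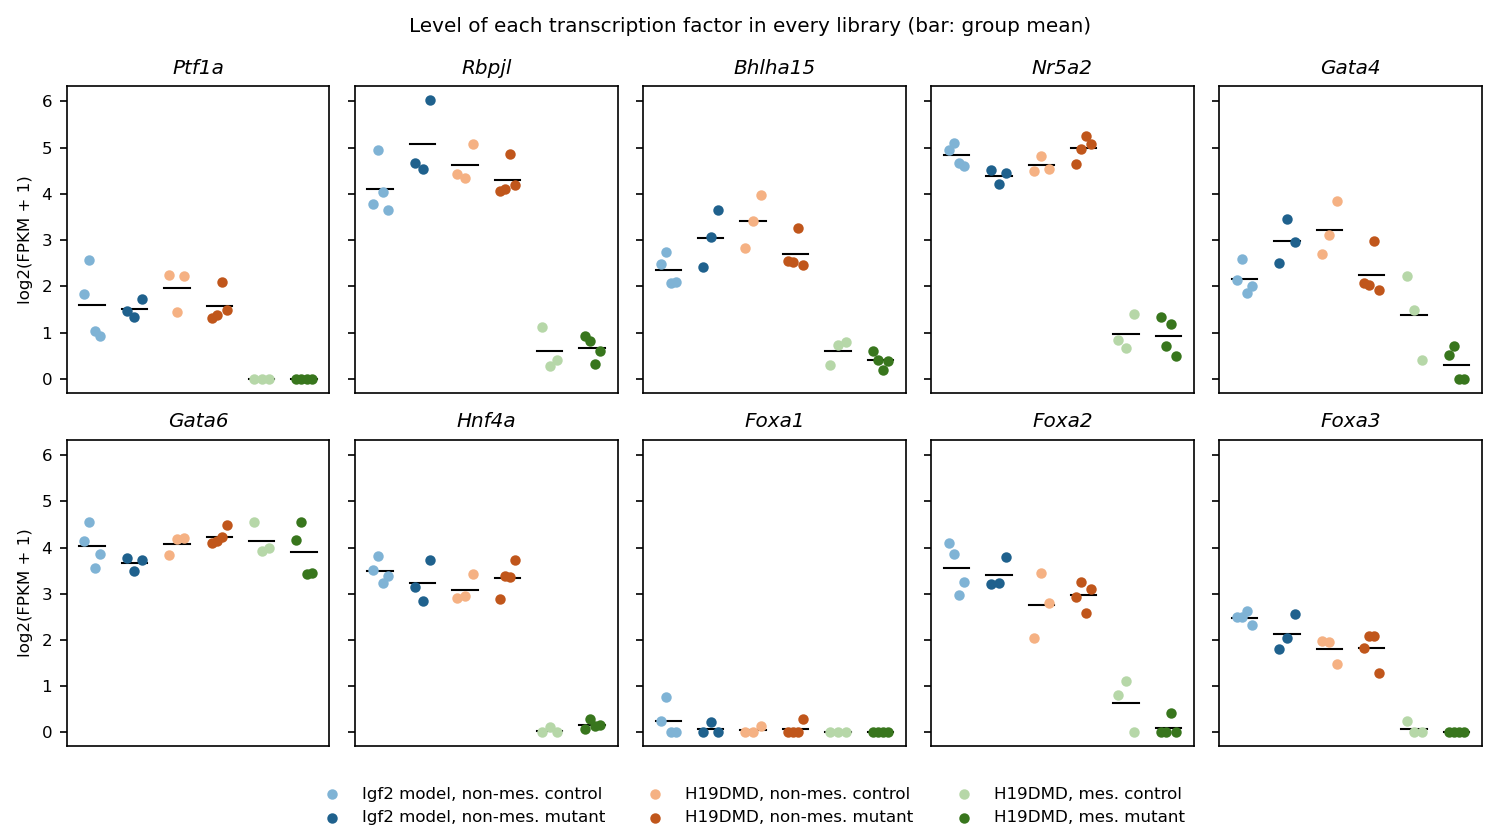
Level of each transcription factor in the 21 libraries, as log2(FPKM + 1) on the vertical axis. Each point is 1 library, black bars are group means, and colours mark the 6 groups. Gata6 is at similar heights in mesenchymal and non-mesenchymal libraries, and Foxa1 stays near 0 in all groups. The other 8 factors have higher means in each of the 4 non-mesenchymal groups than in the 2 mesenchymal ones. For Gata4, mesenchymal control 1 (3.67 FPKM) lies above some libraries of the non-mesenchymal H19DMD mutants and Igf2 controls.

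The sorted fractions were compared to ask which factors mark the non-mesenchymal cells. In the H19DMD controls, 7 of the 9 tested factors were lower in mesenchymal than in non-mesenchymal cells, none was higher, and Gata6 overlapped between the fractions. Tests were made with limma on log2(FPKM + 1), with Benjamini-Hochberg adjustment over all genes whose mean across the compared libraries reached 1 FPKM. Of the 16732 genes tested, 22.6% passed an adjusted p of 0.05, and 10.3% were lower in mesenchymal cells. The median difference of the 9 factors was -2.12 on the log2 scale and that of all genes 0.08. Foxa1 did not reach the level needed for testing. Of the 9, 6 reached a mean of 1 FPKM only in the non-mesenchymal cells, so that these had to differ and their count is a description. The 3 that reached it in both fractions were Nr5a2, Gata4 and Gata6.

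Among the PTF1 components, Ptf1a was at 3.73, 1.71 and 3.67 FPKM in the 3 control libraries of non-mesenchymal cells and was listed at 0 in the 3 of mesenchymal cells. Rbpjl was at 20.5, 19.2 and 32.9 FPKM in non-mesenchymal and at 1.17, 0.217 and 0.325 FPKM in mesenchymal controls. No library of one fraction reached the values of the other for either gene. The difference of Rbpjl was -4.01 ± 0.33 on the log2 scale (SE, limma adjusted p = 0.000655), and that of Ptf1a, which depends on the added 1 FPKM because one fraction is listed at 0, was -1.97 ± 0.34 (limma adjusted p = 0.00954).

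Both acinar regulators outside the complex were low in mesenchymal cells as well. Bhlha15 was at 6.08, 9.71 and 14.8 FPKM in non-mesenchymal and at 0.232, 0.659 and 0.725 FPKM in mesenchymal controls. For Nr5a2 the values were 21.5, 27.2 and 22.3 FPKM against 0.800, 0.583 and 1.65 FPKM. The fractions did not overlap, and the log2 differences were -2.80 ± 0.36 for Bhlha15 (limma adjusted p = 0.00298) and -3.65 ± 0.26 for Nr5a2 (limma adjusted p = 0.00039). Mesenchymal levels of Rbpjl, Nr5a2 and Bhlha15 were 2.36%, 4.27% and 5.29% of the non-mesenchymal ones. For comparison, 23 acinar enzyme and secretory genes summed to 1.37% and 7 pan-epithelial genes to 2.09% of their non-mesenchymal sums in the same libraries, and the part of acinar RNA in the mesenchymal values of the factors was not tested.

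The 2 GATA factors differed from each other in their pattern. Gata4 was at 5.46, 7.69 and 13.3 FPKM in non-mesenchymal and at 3.67, 1.81 and 0.326 FPKM in mesenchymal controls, whereas Gata6 was at 13.2, 17.3 and 17.4 FPKM in non-mesenchymal and at 22.3, 14.2 and 14.8 FPKM in mesenchymal controls. The Gata4 fractions did not overlap, but 1 mesenchymal library, control 1, came close to the lowest non-mesenchymal value. The log2 difference of Gata4, -1.84 ± 0.54, missed the threshold (limma adjusted p = 0.0598). It passed with median-ratio scaling (adjusted p = 0.0403), in a limma fit of all 4 groups of the model (0.00989) and without mesenchymal control 1 (0.0420). For Gata6 the fractions overlapped, with a log2 difference of 0.07 (95% interval -0.51 to 0.65, limma adjusted p = 0.863) and a mesenchymal level of 107% of the non-mesenchymal one. The sign of this small difference turned under median-ratio scaling (-0.05), a setting that moved the median of all genes by -0.12, and without mesenchymal control 1 (-0.12) or non-mesenchymal control 1 (-0.05).

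Among the broad epithelial factors, Hnf4a was at 6.47, 6.72 and 9.74 FPKM in non-mesenchymal controls and at 0, 0.0774 and 0 FPKM in mesenchymal ones, and Foxa3 at 2.94, 2.88 and 1.78 FPKM against 0.193, 0 and 0 FPKM. Foxa2 was at 3.12, 9.88 and 6.01 FPKM against 0.747, 1.17 and 0 FPKM. None of the 3 overlapped between fractions, and Hnf4a stood at 0.338% of its non-mesenchymal level in mesenchymal cells. Log2 differences were -3.06 ± 0.26 for Hnf4a (limma adjusted p = 0.000682), -2.12 ± 0.48 for Foxa2 (0.0246) and -1.72 ± 0.31 for Foxa3 (0.0107). The Foxa2 call was lost with a pseudocount of 0.1 in place of 1 (limma adjusted p = 0.0571) and without mesenchymal control 1 (0.0622), mesenchymal control 3 (0.0656), non-mesenchymal control 2 (0.0731) or non-mesenchymal control 3 (0.0765). Foxa1 was listed at 0 in the mesenchymal controls and in 2 of the 3 non-mesenchymal ones, with 0.0972 FPKM in the third.

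On the log2(FPKM + 1) scale the fold of low genes is understated, and with 0.1 FPKM added the differences grew to -4.89 for Ptf1a, -5.97 for Hnf4a, -4.17 for Foxa3 and -3.61 for Foxa2. Of the 9 tested factors, 8 did not overlap between the fractions, Gata4 included, against 39.9% of all genes tested, 17.4% with mesenchymal cells lower. Since 6 of those 8 entered the test only through the non-mesenchymal cells, this count is a description too, as are the p-values of the 6. With 3 against 3 libraries the exact permutation test cannot go below its smallest two-sided p of 0.1, which those 8 reached, and Gata6 was at an exact p of 0.8.

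In the H19DMD mutants the same comparison rested on 4 against 4 libraries, and here 8 of the 9 tested factors were lower in mesenchymal cells, Gata4 among them. Across 16767 genes, 28.6% passed and 15.1% were lower in mesenchymal cells, and the median difference was -2.30 over the 9 factors and -0.03 over all genes. In this comparison Gata6 alone reached a mean of 1 FPKM in mesenchymal cells, so the count of the other 8 is again a description. Nr5a2 was at 23.9, 30.3, 37.1 and 32.9 FPKM in non-mesenchymal and at 1.52, 0.637, 1.28 and 0.412 FPKM in mesenchymal mutants. Rbpjl was at 15.8, 16.1, 27.9 and 17.3 FPKM against 0.898, 0.749, 0.246 and 0.522 FPKM. These 2 genes had the largest log2 differences among the factors, -4.05 ± 0.24 (limma adjusted p = 1.07e-05) and -3.64 ± 0.24 (1.73e-05).

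Gata4 in mutant animals was at 3.18, 3.10, 6.91 and 2.77 FPKM in non-mesenchymal and at 0.423, 0.632, 0 and 0 FPKM in mesenchymal cells, with no overlap and a log2 difference of -1.95 ± 0.33 (limma adjusted p = 0.00298). Gata6 was at 16.2, 16.5, 17.6 and 21.4 FPKM against 17.0, 22.4, 9.78 and 9.92 FPKM, and the fractions overlapped. Mesenchymal mutants 3 and 4 were the low libraries for Gata6, while mutants 1 and 2 were within or above the non-mesenchymal range. The Gata6 difference was -0.34 with a 95% interval of -0.97 to 0.30 (limma adjusted p = 0.419). The remaining 5 called factors had log2 differences of -3.18 (Hnf4a), -2.86 (Foxa2), -2.30 (Bhlha15), -1.82 (Foxa3) and -1.57 (Ptf1a), and the highest limma adjusted p among the 8 was 0.00487. No overlap was seen for these 8 factors, against 31% of all genes tested (16.6% with mesenchymal cells lower), with an exact permutation p of 0.0286, the smallest that 4 against 4 libraries allow. All 8 entered the test only through the non-mesenchymal cells, so this count and their p-values are descriptions too. Ptf1a, Foxa1 and Foxa3 were listed at 0 in all 4 mesenchymal mutant libraries.

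**Figure D2:**
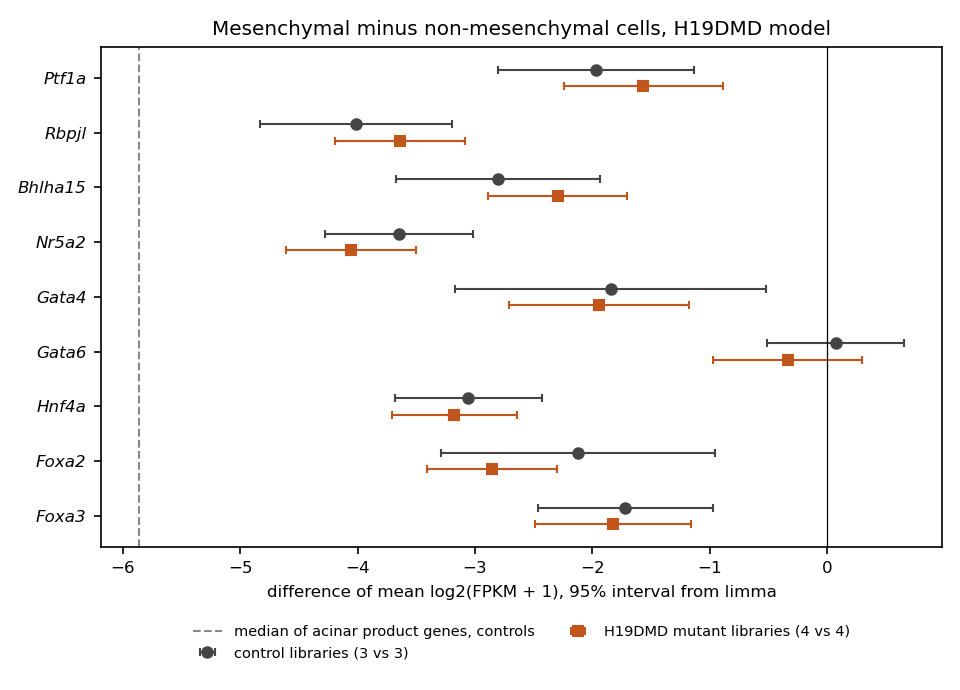
Difference between mesenchymal and non-mesenchymal cells for the 9 tested factors in the H19DMD model. The horizontal axis is the difference of mean log2(FPKM + 1), mesenchymal minus non-mesenchymal, points are limma estimates for controls (dark circles, 3 against 3 libraries) and mutants (orange squares, 4 against 4), bars are 95% intervals, and the dashed line is the median of the acinar product genes in controls. Gata6 lies across 0 in both genotypes, with 0.07 and -0.34, while Rbpjl and Nr5a2 lie farthest to the left.

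A list of 16 PTF1 partners and foregut co-regulators was read beside the factors. In controls, 15 of them could be tested: 1 was higher in mesenchymal cells, 8 were lower and 6 did not pass. Of all genes tested, 22.6% passed and 10.3% were lower. The median log2 difference of the list was -1.74, against 0.08 for all genes. Among those lower in mesenchymal cells were Prox1 (-4.60 ± 0.19, limma adjusted p = 9.19e-05) and Sox9 (-4.51 ± 0.34), which encode ductal and progenitor regulators. Onecut1, Hhex and Pdx1, which act in the early pancreatic epithelium, followed at -3.82, -3.66 and -3.64, and Onecut2 (-1.87) and Nr0b2 (-1.74), a corepressor that binds NR5A2, also passed. Of these, Onecut1, Pdx1, Onecut2 and Nr0b2 averaged below 1 FPKM in mesenchymal cells and entered the test only through the non-mesenchymal ones, so that the count of the list is a description.

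The general partners of PTF1A behaved otherwise. Rbpj, the widely expressed relative of Rbpjl, averaged 18.9 FPKM in mesenchymal and 12.3 FPKM in non-mesenchymal controls (log2 difference 0.58 ± 0.20, limma adjusted p = 0.0909), and it passed only in the limma fit of all 4 groups (adjusted p = 0.0432). The E-protein genes Tcf12 (26.7 against 21.4 FPKM) and Tcf3 (13.3 against 10.5 FPKM) did not pass, at 0.30 ± 0.19 and 0.29 ± 0.30, nor did Xbp1 (74.1 against 76.1 FPKM), which drives the secretory machinery. Zfpm2, which encodes the GATA cofactor FOG2, was the 1 co-regulator higher in mesenchymal cells, at 10.4, 9.49 and 5.99 FPKM against 0.748, 0.331 and 0.0915 FPKM (2.79 ± 0.31, limma adjusted p = 0.00186). In mutants, 1 of the 15 was higher, again Zfpm2 (2.97), and 9 were lower, those named for controls among them. Of all genes tested in mutants, 28.6% passed and 15.1% were lower. Hhex, Onecut1, Pdx1, Onecut2 and Nr0b2 averaged below 1 FPKM in mesenchymal mutants. They entered the test only through the non-mesenchymal cells, so this count is a description as well.

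Other members of the same families and known targets were also measured. Of 7 listed relatives, 6 were in the tables and 2 could be tested between fractions of controls. Both entered the test only through their non-mesenchymal level and so had to be lower in mesenchymal cells: Gata2, a haematopoietic and endothelial factor, averaged 0.520 against 8.23 FPKM (-2.60) and Gata3, a lymphoid and epithelial factor, 0.451 against 30.8 FPKM (-4.31). Leukocyte genes moved the same way, and 10 of them summed to 3.72% of their non-mesenchymal level in mesenchymal controls. Endothelial genes went the other way: 8 of them summed to 270% of their non-mesenchymal level, with a median log2 difference of 1.29. The part of either cell type in the Gata2 and Gata3 values was not tested. Of the 4 listed BHLHA15 targets, 3 were tested. Rab3d, a secretory granule GTPase that averaged 2.24 FPKM in mesenchymal and 8.16 FPKM in non-mesenchymal controls, was lower in mesenchymal cells (-1.48, limma adjusted p = 0.0266), as were 10.3% of all genes tested. Gjb1, a gap junction gene listed at 0 in the mesenchymal controls, and Rab26 were tested only through the non-mesenchymal cells, and Gjb1 passed (-3.24) while Rab26 did not (-1.51 ± 0.44, limma adjusted p = 0.0601).

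The second question was whether deletion of Igf2 in the mesenchyme changed the factors in the neighbouring non-mesenchymal cells. No factor passed the adjusted threshold in the Igf2 model. Among 17441 genes tested 0.0631% did, and 5.28% had an unadjusted p below 0.05. Of the 9 tested factors 2, Gata4 and Nr5a2, were below that unadjusted level, and their signs were opposite. The median difference was -0.14 over the factors, 3 above 0 and 6 below, and -0.03 over all genes.

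Gata4 was at 4.70, 9.96 and 6.72 FPKM in the Igf2 mutants and at 3.38, 5.03, 2.64 and 3.04 FPKM in their controls. Mutant 1 was within the control range and the other 2 mutants were above it, so the groups overlapped. The log2 difference was 0.82 (95% interval 0.10 to 1.54, unadjusted limma p = 0.0302, adjusted p = 0.919, exact permutation p = 0.0857). Nr5a2 was at 21.7, 17.5 and 21.0 FPKM in mutants and at 30.0, 33.4, 24.5 and 23.3 FPKM in controls, and every mutant was below every control. Its log2 difference was -0.44 (95% interval -0.88 to -0.0046, unadjusted limma p = 0.0482, adjusted p = 0.919), with an exact permutation p of 0.0571. It was the 1 factor without overlap, and 6.02% of all genes tested had none, 3.37% with mutants lower.

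Rbpjl and Bhlha15 were higher on average in the mutants but spread widely. Rbpjl was at 24.2, 22.3 and 64.3 FPKM in mutants and at 12.8, 29.7, 15.4 and 11.6 FPKM in controls, and Bhlha15 at 4.36, 7.33 and 11.6 FPKM against 4.58, 5.66, 3.18 and 3.28 FPKM. Mutant 3 was the highest library for both genes, control 2 was the highest control for both, and the groups overlapped. Differences were 0.97 (95% interval -0.11 to 2.06) for Rbpjl and 0.70 (-0.11 to 1.51) for Bhlha15. Without mutant 3 they were 0.50 and 0.40. Ptf1a was at 1.74, 1.52 and 2.33 FPKM in mutants and at 2.58, 4.92, 1.05 and 0.907 FPKM in controls, with 2 controls above and 2 below all mutants (-0.08, 95% interval -1.17 to 1.00). The sign of the Ptf1a difference turned without mutant 2 or control 2, and it stayed between -0.30 and 0.24 whichever library was left out.

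Gata6 and the broad epithelial factors were near or below their control levels. Gata6 was at 12.6, 10.2 and 12.2 FPKM in mutants and at 16.7, 22.6, 10.8 and 13.4 FPKM in controls. Hnf4a was at 7.81, 6.18 and 12.3 FPKM against 10.4, 13.1, 8.44 and 9.50 FPKM. For these 2 genes the groups overlapped, with differences of -0.37 (95% interval -0.99 to 0.25) and -0.25 (-0.88 to 0.38). Foxa2 was at 8.30, 8.36 and 12.9 FPKM against 16.1, 13.6, 6.85 and 8.59 FPKM, and Foxa3 at 2.47, 3.11 and 4.92 FPKM against 4.64, 4.63, 5.21 and 3.99 FPKM. These also overlapped, at -0.14 (-0.90 to 0.63, turning to 0.04 without control 1) and -0.35 (-0.95 to 0.25). Leaving out single libraries moved the differences between -0.53 and -0.19 for Gata6, -0.50 and -0.05 for Hnf4a, and -0.57 and -0.18 for Foxa3. Foxa1 was listed at 0 in 2 of 3 mutants and in 2 of 4 controls and was not tested.

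Acinar product genes gave the setting for these values. Their 23 FPKM values summed to 108753 to 127224 in the Igf2 mutants and to 37737 to 56190 in the controls, and all 23 genes were higher on average in mutants, with a median difference of 1.14 on the log2 scale none past the limma adjusted threshold and 21 with an unadjusted p below 0.05. The 10 leukocyte genes were also all higher on average (median 0.49), and 6 of 7 pan-epithelial genes were lower (median -0.26). When each factor was expressed relative to the mean log2 of the acinar products in the same library, all 9 were lower on average in mutants. For 5 of them the groups did not overlap: Nr5a2 (-4.86 ± 0.26 in mutants against -3.27 ± 0.36 in controls, SD), Gata6 (-5.59 ± 0.26 against -4.07 ± 0.56), Foxa3 (-7.12 ± 0.40 against -5.62 ± 0.24), Hnf4a (-6.01 ± 0.52 against -4.61 ± 0.42) and Ptf1a (-7.74 ± 0.27 against -6.51 ± 0.75). On this relative scale, however, 58.3% of all genes did not overlap, 58.2% with mutants lower, and the median gene differed by -1.18, so that the count of 5 of 9 is near the background. Rbpjl (-0.18), Gata4 (-0.33) and Bhlha15 (-0.45) were the 3 factors whose relative level differed least, and the groups overlapped for each of them and for Foxa2 (-1.29). The part of the acinar RNA share in the differences of the factors was not tested.

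In the H19DMD model, the comparison of mutant with control non-mesenchymal cells likewise gave no factor past the adjusted threshold, which 0.0677% of 16239 genes passed. Of the 9 factors 1, Gata4, had an unadjusted p below 0.05, against 5.35% of all genes. No factor was without overlap, against 5.68% of all genes. The median difference was 0.02 over the factors, 5 above 0 and 4 below, and 0.05 over all genes.

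Gata4 and Bhlha15 were the factors with the largest differences, and both were lower in mutants on average. Gata4 was at 3.18, 3.10, 6.91 and 2.77 FPKM in mutants and at 5.46, 7.69 and 13.3 FPKM in controls. Bhlha15 was at 4.83, 4.72, 8.59 and 4.47 FPKM against 6.08, 9.71 and 14.8 FPKM. In both cases mutant 3 alone lay within the control range and the other 3 mutants were below every control. The log2 difference of Gata4 was -0.97 (95% interval -1.84 to -0.10, unadjusted limma p = 0.0340, adjusted p = 0.892, exact permutation p = 0.0857) and that of Bhlha15 -0.71 (-1.50 to 0.07, unadjusted limma p = 0.0673, adjusted p = 0.894, exact permutation p = 0.0857). The Bhlha15 difference was -0.43 without control 3, the highest control library.

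The groups also overlapped for the PTF1 components. Ptf1a was at 1.49, 1.59, 3.28 and 1.79 FPKM in mutants and at 3.73, 1.71 and 3.67 FPKM in controls, a difference of -0.40 (95% interval -1.17 to 0.37). Rbpjl was at 15.8, 16.1, 27.9 and 17.3 FPKM against 20.5, 19.2 and 32.9 FPKM, a difference of -0.31 (-0.96 to 0.33). Over single libraries left out they ranged from -0.67 to -0.26 and from -0.50 to -0.08. Mutant 3 was again the highest mutant for both, and for Rbpjl it alone lay within the control range, while for Ptf1a mutants 3 and 4 did. Nr5a2 was higher on average in mutants, at 23.9, 30.3, 37.1 and 32.9 FPKM against 21.5, 27.2 and 22.3 FPKM, with only mutant 1 inside the control range (0.37, 95% interval -0.08 to 0.81, exact permutation p = 0.114).

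Gata6, at 16.2, 16.5, 17.6 and 21.4 FPKM in mutants and 13.2, 17.3 and 17.4 FPKM in controls, differed by 0.16 (95% interval -0.25 to 0.57). Hnf4a, at 6.397, 9.46, 9.30 and 12.3 FPKM against 6.47, 6.72 and 9.74 FPKM, differed by 0.25 (-0.34 to 0.84). With single libraries left out the first lay between 0.04 and 0.22 and the second between 0.12 and 0.42. Foxa2 (6.66, 8.47, 4.97 and 7.58 FPKM against 3.12, 9.88 and 6.01 FPKM) and Foxa3 (2.57, 3.26, 3.27 and 1.42 FPKM against 2.94, 2.88 and 1.78 FPKM) differed by 0.20 and 0.02, values that turned negative when single libraries were left out, and for Foxa3 also under median-ratio scaling (-0.03). All 4 genes overlapped between mutants and controls. Foxa1 was listed at 0 in 3 of 4 mutants and 2 of 3 controls.

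Acinar products summed to 62622 to 91087 FPKM in the H19DMD mutants and 54242 to 137642 in the controls, so that these groups overlapped, and the median difference of the 22 that were tested was -0.16. Relative to the acinar products, 2 of the 9 factors did not overlap between mutants and controls, Bhlha15 and Gata4. Bhlha15 was at -5.44, -5.40 and -5.40 in the controls, a mean of -5.41 ± 0.022 (SD, n = 3), and at -6.11, -5.90, -5.90 and -6.24 in the mutants, a mean of -6.04 ± 0.17 (n = 4). Gata4 was at -5.57, -5.70 and -5.54 (mean -5.60 ± 0.084) in the controls and at -6.59, -6.38, -6.17 and -6.78 (mean -6.48 ± 0.26) in the mutants. The differences were -0.63 and -0.88, while 2.28% of all genes did not overlap on this scale, 0.684% with mutants lower, and the median gene differed by 0.14. These relative levels were described and not tested, and the direction of both held with a pseudocount of 0.1, with median-ratio scaling and without the 3 most abundant products. Erythroid genes, which belong to red cell precursors, moved beside them: all 6 in the table were higher on average in the mutants (median 1.59), and 7 of 7 pan-epithelial genes were too (median 0.59), and their part in the Bhlha15 and Gata4 values was not tested.

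**Figure D3:**
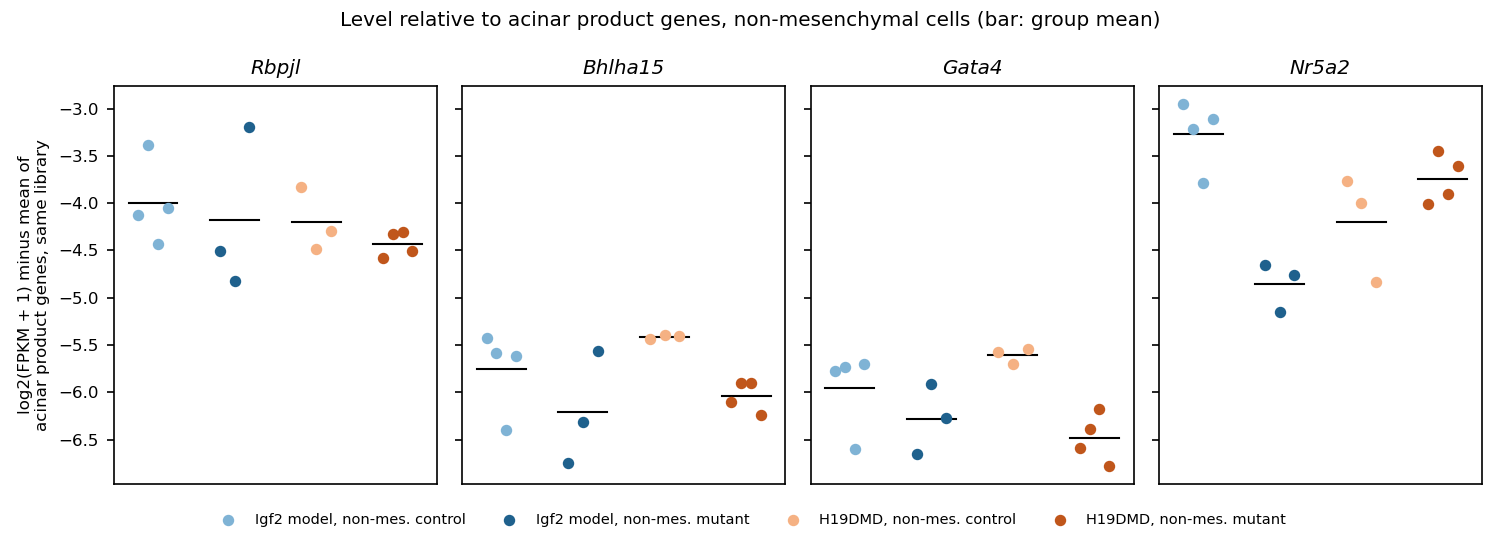
Level of 4 factors relative to the acinar product genes of the same library, as log2(FPKM + 1) of the factor minus the mean log2(FPKM + 1) of the 23 products, in the non-mesenchymal libraries of both models. Points are libraries and bars are group means. Bhlha15 and Gata4 are lower in all 4 H19DMD mutants than in all 3 controls, whereas Rbpjl overlaps in both models and Nr5a2 is lower in the Igf2 mutants than in their controls.

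Set side by side, the 2 models gave differences of opposite sign for several factors in the non-mesenchymal cells, none of which passed the adjusted threshold. Mutant minus control differences in the Igf2 and the H19DMD model were 0.82 and -0.97 for Gata4, 0.70 and -0.71 for Bhlha15, 0.97 and -0.31 for Rbpjl, -0.44 and 0.37 for Nr5a2, -0.37 and 0.16 for Gata6, and -0.25 and 0.25 for Hnf4a. For Ptf1a both were below 0, at -0.08 and -0.40. The models have separate controls, separate tables and separate pools, and the difference between the models was not tested.

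**Figure D4:**
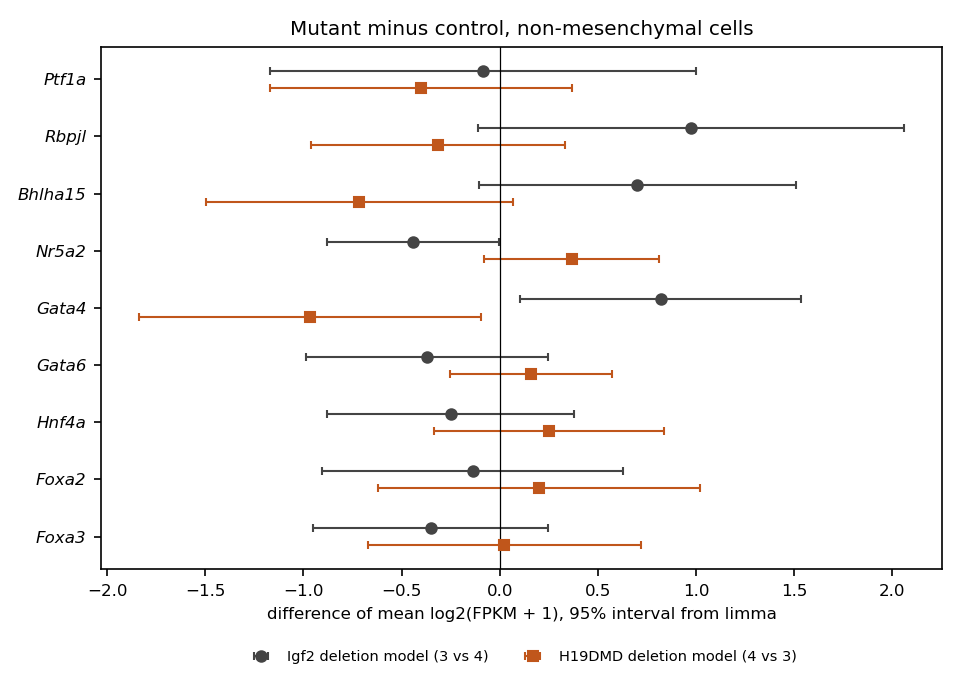
Mutant minus control differences of the 9 tested factors in non-mesenchymal cells. The horizontal axis is the difference of mean log2(FPKM + 1), points are limma estimates for the Igf2 model (dark circles, 3 mutant against 4 control libraries) and the H19DMD model (orange squares, 4 against 3), and bars are 95% intervals. Gata4 has intervals on opposite sides of 0 in the 2 models (0.82 and -0.97), Nr5a2 has one just below 0 in the Igf2 model, and all other intervals include 0.

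The H19DMD deletion acts in the mesenchymal cells themselves, where Gata6 was the 1 factor high enough to be tested. Gata6 was at 17.0, 22.4, 9.78 and 9.92 FPKM in mesenchymal mutants and at 22.3, 14.2 and 14.8 FPKM in mesenchymal controls. Mutants 3 and 4 were below all controls, mutant 1 was within their range and mutant 2 just above it, so the groups overlapped, with a log2 difference of -0.25 (95% interval -1.05 to 0.55, limma adjusted p = 0.945, exact permutation p = 0.6). Among 15856 genes 0.0694% passed the adjusted threshold and 4.76% had an unadjusted p below 0.05, Gata6 not among them. Gata4 was at 0.423, 0.632, 0 and 0 FPKM in mutants and at 3.67, 1.81 and 0.326 FPKM in controls, and the groups overlapped at the lowest control (exact permutation p = 0.114). Mesothelial genes moved with Gata4: 7 of them summed to 114.6 to 165.6 FPKM in mutants and 173.6 to 371.1 FPKM in controls, 6 of 7 lower on average, and their part in the Gata4 values was not tested. The other 8 factors averaged at most 1.01 FPKM in either group.

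The difference between the 2 fractions in the effect of the H19DMD deletion was fitted as an interaction over all 14 libraries of the model. It can be read as such for Gata6, the 1 factor with a mean of at least 1 FPKM in mesenchymal cells of both genotypes besides the non-mesenchymal ones. Where the mesenchymal values are all at 0, the interaction restates the non-mesenchymal difference with its sign turned. This was so for Ptf1a (0.40 against -0.40), which was listed at 0 in all mesenchymal libraries. For other factors low in mesenchymal cells, the mesenchymal difference also enters it. Mutant minus control differences in mesenchymal and non-mesenchymal cells were -0.53 and 0.20 for Foxa2, and -1.07 and -0.97 for Gata4. No factor passed in limma, and 0.0117% of 17105 genes did. No factor had an unadjusted p below 0.05 either, against 6.35% of all genes. Foxa2 had the lowest limma adjusted p, 0.857, with an interaction of -0.73 (95% interval -1.81 to 0.34), and the others lay between -0.41 (Gata6 and Nr5a2) and 0.51 (Bhlha15). Of the 9 tested factors 3 were above 0 and 6 below, with a median of -0.11, as for all genes. The signs of Hnf4a (-0.12), Gata4 (-0.10) and Foxa3 (-0.11) turned under some alternatives.

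None of the co-regulators, family members or BHLHA15 targets passed the limma adjusted threshold in any of the 3 mutant comparisons. At an unadjusted p below 0.05, Gata3 was among them in the non-mesenchymal cells of both models and Zfpm1, which encodes the GATA cofactor FOG1, in those of the H19DMD model (2.07 FPKM in controls and 4.09 FPKM in mutants). Of 15 co-regulators tested in the Igf2 model 6 were above 0 and 9 below, with a median of -0.03, and of 14 in the H19DMD non-mesenchymal cells 12 were above 0, with a median of 0.19 against 0.05 for all genes. In mesenchymal cells 10 could be tested, with a median of 0.09. The 3 tested BHLHA15 targets had medians of 0.07 in both non-mesenchymal comparisons, where Bhlha15 itself was at 0.70 and -0.71.

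Finally, genes with the most alike pattern were listed for Ptf1a, Rbpjl and Hnf4a, by the root mean square difference of log2(FPKM + 1) after centring each gene within its table, over the 14 non-mesenchymal libraries and 15606 genes. For Rbpjl these were Il22ra1 (0.279), Hnmt (0.313) and Etv5 (0.317), with a median over genes of 0.707, and Bhlha15 was the ninth in the list, at 0.341. Rbpjl and Bhlha15 thus followed each other across these libraries more closely than either followed Ptf1a, which was at 0.512 and 0.501 from them. For Ptf1a the closest genes were Foxp2 (0.258), Gm16153 (0.260) and Gps1 (0.266), with a median of 0.616. For Hnf4a the closest genes included Iqgap3 (0.139) and Ctnna1 (0.146), with a median of 0.470, and Gata6 (0.221) and Nr5a2 (0.247) were the nearest of the other factors. The libraries of a model share their table and its normalisation, and the lists are descriptions without a test.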

How the data were processed

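RNA of 31 samples was labelled in the series, and 21 libraries with values were used. Per the labels' protocols, pancreata were dissociated and sorted for YFP, RNA was purified on RNEasy Micro columns, 2 ng was amplified with Ovation RNA-seq V2, made into libraries with Ovation Rapid DR and read as single 50 bp reads on an Illumina HiSeq. Amplification from so little RNA can add spread to low genes. TopHat2 2.0.8, Cufflinks 2.2.1 and the GRCm38 build are named in the submitters' processing notes. The authors deposited 1 table of FPKM values per model, per the file headers, with columns matched to samples by library name. The 8 mesenchymal columns of the first table were empty, and these samples and 2 H19DMD controls were not analysed here. Any scaling between libraries and the use of strand are not given in the sources used here.

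From the FPKM, log2(FPKM + 1) was computed. Genes whose mean reached 1 FPKM across the compared libraries were fitted with limma 3.58.1 (lmFit, eBayes with a variance trend) in R 4.3.3, two-sided, within a table, with Benjamini-Hochberg adjustment over all genes tested and a threshold of 0.05. Differences are given with their SE or 95% interval. Two-sided exact permutation tests over libraries stand beside single genes. Since a value of exactly 0 may mark a transcript whose estimate failed, such genes are called listed at 0. Since depth is unknown, no counting interval is given. The 10 factors were named throughout, the co-regulator, family and target lists could all be named, and of other lists at most the 3 largest called genes per direction. For each of 3 factors the 3 genes with the most alike pattern were to be named. A few genes of these lists are not reported here. The members and lists were chosen with earlier results of these data known. Alternatives were another pseudocount (0.1), no filter or a mean of at least 5 FPKM, median-ratio scaling, no features under 200 nt, no variance trend, the replicate number as a block, a fit of all 4 H19DMD groups, and each library left out. The scripts were tested on simulated data. Promoter windows came from a RefSeq table of GRCm38.p6.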

Additional observations from a re-analysis of the deposited data

Results flagged for a closer look

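In groups of 4 libraries, the gap of the highest or lowest library to its nearest neighbour was set against the range of the group, and 5 of 27 groups examined had a gap beyond Dixon's critical value for 4 libraries. Chance alone gives this in about 1 of 20 groups, a share that does not apply to the 5 as a whole, since 3 come from 1 library and in the other 2 groups all but 1 library were listed at 0, which fixes the ratio. Of the 5, 3 fell on the same library, non-mesenchymal H19DMD mutant 3, where Rbpjl was at 27.9 FPKM, Bhlha15 at 8.59 FPKM and Gata4 at 6.91 FPKM, each far above the other 3 mutants. The acinar product genes of that library also had the highest sum of the 4, 91087 FPKM against 62622 to 74677, and their part in the 3 values was not tested.

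The other two concern genes near 0. Foxa1 was at 0.222 FPKM in non-mesenchymal H19DMD mutant 4 and listed at 0 in the other mutants of that fraction, and Foxa2 was at 0.345 FPKM in mesenchymal H19DMD mutant 3 and listed at 0 in the other mutants of that fraction.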

How the results depend on the processing

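Directions and calls of the factors and the extra genes named held in 807 of 835 alternative fits, and all 54 alternatives of the relative levels moved them by less than the spread between libraries. Calls lost or gained in the fraction comparison of controls are given in the report for Foxa2, Gata4 and Rbpj. Depth is unknown, and the 3 or 4 libraries of a group limit the precision.

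The number of genes past the threshold moved as follows. With the replicate number as a block it was 17 in the Igf2 model (11 without) and 4 for the interaction (2 without), with changes under 1.5 times in the other comparisons. Same-numbered libraries did not deviate together, with correlations of -0.0506 to 0.0674, so the numbers were not taken as pairs. Foxa3 missed the threshold between fractions of controls with the block (limma adjusted p = 0.0504). In the fit of all 4 H19DMD groups the count was 5 in mesenchymal and 1 in non-mesenchymal cells, against 11 each. With a mean of at least 5 FPKM it was 2448 between fractions of controls and 3148 in mutants, against 3785 and 4802, with fewer genes tested. For the interaction it was 6 with a pseudocount of 0.1 and 6 without a filter. Leaving out 1 library gave 14 to 37 genes in the Igf2 model, 13 to 27 in mesenchymal and 14 to 34 in non-mesenchymal H19DMD cells, 2813 to 3256 and 3892 to 4638 between fractions of controls and mutants, and 2 to 9 for the interaction. A group left with 2 libraries shares the spread estimated over both groups. The causes of these moves were not tested beyond the smaller number of genes or samples.

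Signs turned only for differences that no test called. Under median-ratio scaling these were Foxa3 in non-mesenchymal H19DMD cells (-0.027) and Gata6 between fractions of controls (-0.048), and for the interaction Hnf4a with a pseudocount of 0.1 (0.56) and with the block (0.015). Ranges over single libraries left out that crossed 0 were, in the Igf2 model, -0.30 to 0.24 (Ptf1a) and -0.33 to 0.044 (Foxa2), in non-mesenchymal H19DMD cells -0.16 to 0.54 (Foxa2) and -0.14 to 0.21 (Foxa3), between fractions of controls -0.12 to 0.19 (Gata6), and for the interaction -0.29 to 0.0095 (Hnf4a), -0.59 to 0.32 (Gata4) and -0.29 to 0.056 (Foxa3).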

Other observations

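Gata3, a relative of Gata4 and Gata6 that acts in lymphoid and some epithelial cells, had larger differences in non-mesenchymal cells than any of the 10 factors, and it is named here after its values were seen. In the Igf2 model it was at 24.8, 35.8 and 15.4 FPKM in mutants and at 6.93, 6.18, 5.84 and 11.7 FPKM in controls. In the H19DMD model it was at 10.1, 11.99, 5.46 and 4.94 FPKM in mutants and at 23.7, 16.9 and 51.9 FPKM in controls. The groups did not overlap in either model, with mutants higher in the first and lower in the second. Of all genes tested, 6.02% did not overlap in the Igf2 model and 5.68% in the H19DMD model. The log2 differences were 1.57 (unadjusted limma p = 0.0024, adjusted p = 0.696) and -1.73 (unadjusted limma p = 0.0058, adjusted p = 0.892), each with an exact permutation p of 0.0286, the smallest that 4 against 3 libraries allow. Over the alternatives the limma adjusted p was 0.425 to 0.976 and 0.414 to 0.996. Leukocyte genes had a median difference of 0.49 in the first model and -0.23 in the second, and their part in the Gata3 values was not tested. The difference between the models was not tested.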
